A study of Mus musculus with 12 samples.

Results

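Srf, the gene of serum response factor, and 9 genes known as targets of SRF or of the YAP coactivator were followed in mouse embryonic stem cells on 12 expression arrays. The other 9 were Ccn1 (formerly Cyr61), Ccn2 (formerly Ctgf), Ankrd1, Amotl2, Tagln, Acta2, Vcl, Actb and Actg1. The genes were chosen by name, and every non-control probe whose accession maps to one of them was taken, which gave 14 of the 56605 probes on the array. A probe entered the tests if some group had it well above background on each of its 3 arrays, and 12 of the 14 did. That left 9 of the 10 genes for testing, among 26837 genes in all. The exception was Ankrd1, a muscle ankyrin repeat protein and a much used YAP reporter, whose only probe was not well above background on any of the 12 arrays and so has no measured level here.

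The cells grew in medium with LIF and 250 nM PD173074, an inhibitor of FGF receptors, and this holds for every group, the untreated one included. MG132 is a proteasome inhibitor, and 4OHT (4-hydroxytamoxifen) is a tamoxifen metabolite that, as a reagent, activates proteins engineered with a mutant oestrogen receptor domain; the labels name no fusion protein and no cell line. There were 4 groups of 3 arrays. In the first, cells had 1 µM MG132 for 30 min and then MG132 together with 250 nM 4OHT for 6 h; in the second, 250 nM 4OHT alone for 6 h; in the third, MG132 for 30 min and then for 6 h more; and the last was untreated and labelled 0 h. Neither a vehicle group nor untreated cells at 6 h were among the arrays used here, so compound and time cannot be told apart in a comparison with untreated cells. The series title names the question as transcription that depends on the proteasome and ERK.

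SRF is a transcription factor that binds a short AT-rich element called the CArG box and works with either of 2 kinds of partner. Ternary complex factors such as the ELK proteins link it to ERK signalling and immediate-early genes, whereas myocardin-related transcription factors (MRTFs) are held back by monomeric actin and link it to genes of the cytoskeleton, Srf among them. YAP and its relative TAZ are the coactivators restrained by the Hippo kinases; they bind no DNA themselves and reach their targets through TEAD factors, whose core site reads CATTCC. Both programmes are known to respond to cell shape and tension. In embryonic stem cells SRF is known for its role in adhesion and actin organisation.

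The letters around such motifs, in the 250 bases before the start given by RefSeq (assembly GRCm38.p6), are shown for 5 members as examples of the elements that SRF and TEAD factors read. Promoter sequence was at hand for 7 of the 10 genes; Actb, Tagln and Ccn2 are only named. A CArG box, searched on both strands, was found in 3 of the 7 (Srf, Actg1 and Vcl), against 1.47% of 32851 promoters, and CATTCC on either strand in 5 of the 7 (Ccn1, Amotl2, Vcl, Acta2 and Ankrd1), against 12.6%. A match says only that the letters are there and assigns no gene to a programme; those of Acta2 and Ankrd1 are not shown. Capitals mark the match and its flanks are in lower case, 5′ to 3′ on the strand of the gene; CATTCC on the opposite strand reads GGAATG. The stretches are Srf at chr17:46556195-46556264 (minus strand), Actg1 at chr11:120348556-120348605 (minus), Vcl at chr14:20929151-20929280 (plus), Ccn1 at chr3:145650063-145650108 (minus) and Amotl2 at chr9:102717719-102717764 (plus).
Srf: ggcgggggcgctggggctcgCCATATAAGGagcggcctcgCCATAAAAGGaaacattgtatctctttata
Actg1: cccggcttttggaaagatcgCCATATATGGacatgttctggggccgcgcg
Vcl: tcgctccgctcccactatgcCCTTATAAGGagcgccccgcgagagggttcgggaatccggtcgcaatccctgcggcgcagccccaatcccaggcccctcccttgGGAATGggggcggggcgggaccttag
Ccn1: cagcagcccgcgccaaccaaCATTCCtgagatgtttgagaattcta
Amotl2: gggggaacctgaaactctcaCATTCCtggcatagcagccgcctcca
Srf carried a pair of CArG boxes and was the only one of the 7 with more than 1, and Vcl carried both kinds of element. For Srf, Amotl2, Vcl and Acta2 the start in the sequence table lies inside the RefSeq span of the gene, which means that an upstream start is also annotated.

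Values are log2 of the background-corrected intensity minus the array's 75th percentile, so that 0 is the level of that percentile, and a level is compared between groups only within 1 probe. The 75th percentile ran from 309.4 to 484.9 intensity units over the 12 arrays, and 49.44% to 63.18% of probes were well above background. The arrays lay on 2 slides: all untreated and all 4OHT arrays and replicates 1 and 2 of MG132 on the first, and replicate 3 of MG132 and all 3 arrays of MG132 with 4OHT on the second. Comparisons of MG132 with 4OHT with 4OHT alone or untreated cells therefore run between slides that only the MG132 group spans. With slide as a block, MG132 with 4OHT is set against every other group through the single MG132 array of the second slide. Values with slide as a block are given for the calls of the 9 genes that it changes and for the calls of listed genes named below that it loses. The replicate 3 arrays of the 4 groups also resembled each other, with correlations of their deviations from the group means of 0.12 to 0.41, and results that rest on them are given with and without them. All 9 embryonic stem cell markers examined, Pou5f1, Sox2 and Zfp42 among them, were well above background on all 12 arrays. Of 12 fibroblast markers 5 were so on all 12 arrays, and of 7 smooth muscle markers 3 were, while Lum of fibroblasts and Myocd, Lmod1 and Synpo2 of smooth muscle were not on any.

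The 9 tested genes did not move as one programme. Ccn2 rose with MG132 and rose further when 4OHT was added to it, with no detectable change under 4OHT alone. Srf fell with 4OHT whether or not MG132 was present. Amotl2 fell with either compound and no further with both, and Vcl rose with MG132 with or without 4OHT. In the plot of values by array the SD of the 3 arrays of a group was at most 0.26 for these 4 genes, against at most 0.51 for Ccn1 and 0.70 for Tagln.

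**Figure D1:**
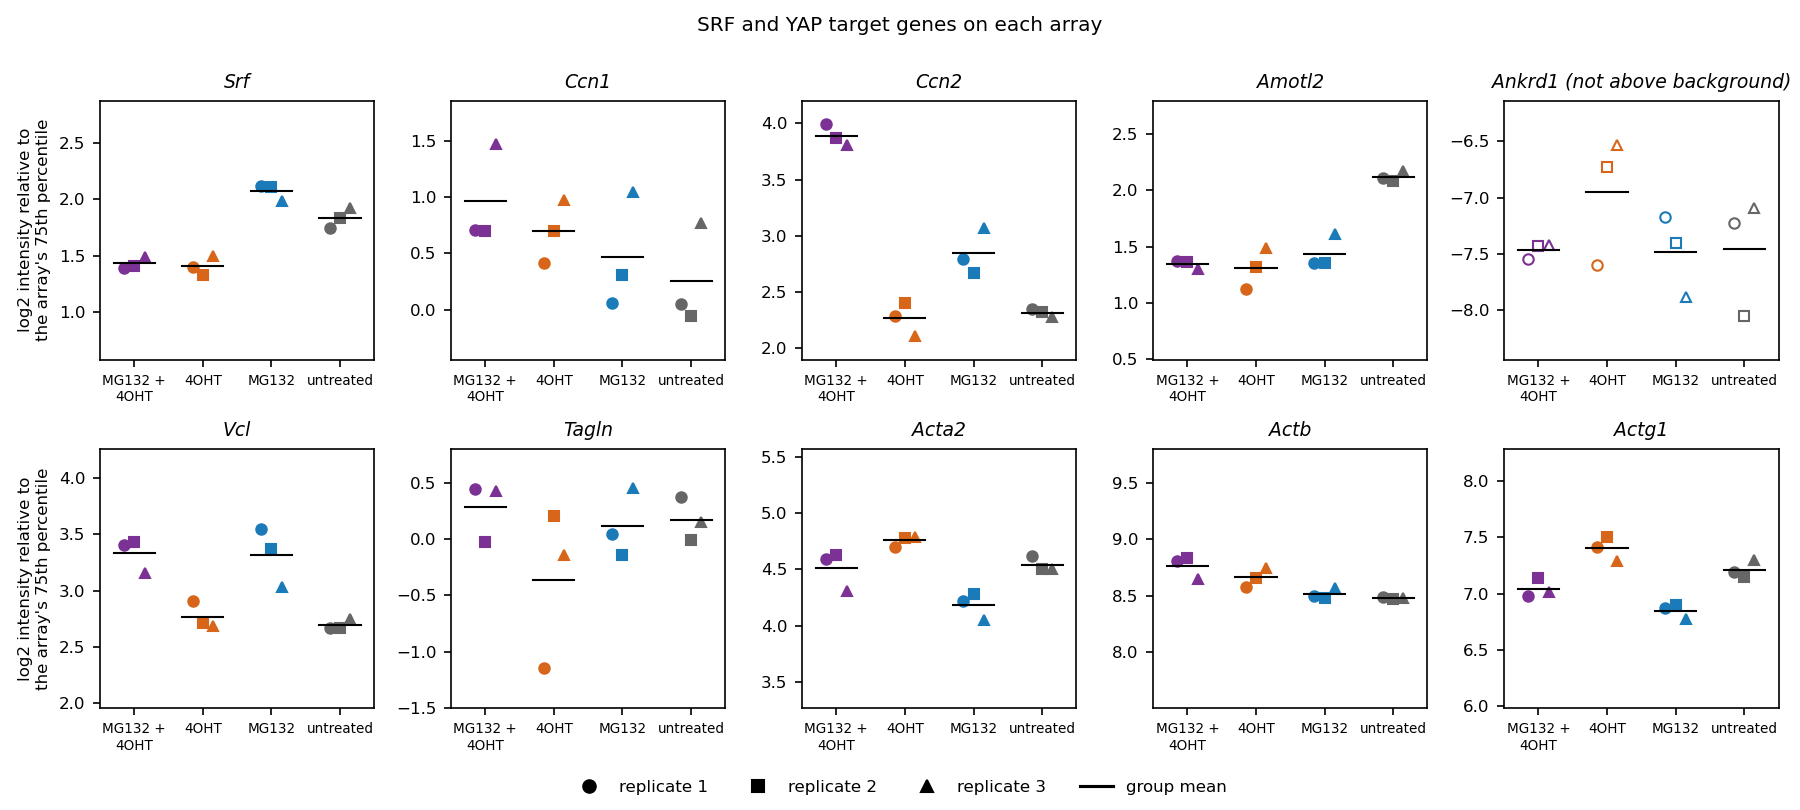
Level of each of the 10 genes on each of the 12 arrays, as log2 intensity relative to the array's 75th percentile (vertical axis, the same span of log2 units in every panel), by group (horizontal axis); points are arrays, their shape the replicate number, bars the group mean, and open points are not well above background. Ccn2 is at 3.81 to 3.99 on the arrays of MG132 with 4OHT, above every other array, and the replicate 3 arrays carry the highest Ccn1 value of each group.

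Ccn2, a secreted matricellular protein and a standard YAP-TEAD target, read 3.99, 3.87 and 3.81 on the 3 arrays of MG132 with 4OHT. It read 2.29, 2.40 and 2.11 with 4OHT alone, 2.79, 2.67 and 3.07 with MG132 alone, and 2.35, 2.32 and 2.28 in untreated cells. Every array of MG132 with 4OHT lay above every array of the other groups, the MG132 arrays lay above the untreated ones, and the 4OHT and untreated arrays overlapped. The mean with both compounds was 3.89 ± 0.09, against 2.84 ± 0.21 with MG132 (SD, n = 3 each), a log2 fold change of 1.05 ± 0.12 (SE; 2.06-fold; adjusted p = 0.00027). Against 4OHT alone, at 2.27 ± 0.15, both compounds together gave 3.08-fold more (log2 fold change 1.62 ± 0.12, adjusted p = 4.0e-06), and against untreated cells, at 2.32 ± 0.04, 2.98-fold more (1.58 ± 0.12, adjusted p = 3.6e-06). MG132 alone gave 1.44-fold the untreated level (0.53 ± 0.12, adjusted p = 0.0049), a call that was lost when arrays were centred on their median (0.19, adjusted p = 0.20). For 4OHT alone against untreated the estimate was -0.05, with a 95% interval of -0.31 to 0.22.

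The 4OHT response of Ccn2 was larger with MG132 than without it by 1.09 ± 0.17 log2 units (adjusted p = 0.0049), with responses of 1.05 with MG132 and -0.05 without. With slide as a block the difference of responses was 0.86, and that fit rests on the single MG132 array of the second slide. On that slide alone the 3 arrays of MG132 with 4OHT averaged 0.82 above this MG132 array. Both values thus hold the same contrast, with no replicate on the MG132 side. On replicates 1 and 2 alone the difference of responses was 1.19 (adjusted p = 0.0068).

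Srf read 1.39, 1.41 and 1.49 with both compounds, 1.40, 1.33 and 1.50 with 4OHT alone, 2.12, 2.11 and 1.98 with MG132 alone, and 1.74, 1.83 and 1.92 in untreated cells. The 6 arrays with 4OHT all lay below the 6 without it. Srf fell by 0.42 ± 0.09 log2 units with 4OHT against untreated cells (1.41 ± 0.09 and 1.83 ± 0.09, SD, n = 3 each; 0.746-fold; adjusted p = 0.0047). With MG132 present, 4OHT lowered it by 0.64 ± 0.09 (1.43 ± 0.05 in MG132 with 4OHT and 2.07 ± 0.08 in MG132; 0.642-fold; adjusted p = 0.00072). The response with MG132 minus that without it was -0.22, with a 95% interval of -0.49 to 0.06 (adjusted p = 0.36). For MG132 alone against untreated, the estimate was 0.24 ± 0.09 with an adjusted p of 0.050, which did not fall below the threshold. It did so under 14 of 28 other settings, slide as a block among them (0.28, adjusted p = 0.042). With median centring the sign turned (-0.10, adjusted p = 0.49). The 28 settings, here and for Acta2 below, include the authors' series-wide table, which held the same intensities. For MG132 against untreated cells they also include the fit without MG132 replicate 3, which is the same as slide as a block. Srf was also lower with both compounds than in untreated cells, by 0.40 on the log2 scale (log2 fold change -0.40 ± 0.09, adjusted p = 0.0029). That call was lost with slide as a block (-0.27, adjusted p = 0.23). Within the second slide, adding 4OHT to MG132 gave -0.55 against the single MG132 array.

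Amotl2, a scaffold protein of the angiomotin family that binds YAP and is itself induced by it, read 1.37, 1.36 and 1.30 with both compounds. It read 1.12, 1.32 and 1.49 with 4OHT, 1.35, 1.35 and 1.61 with MG132, and 2.11, 2.08 and 2.17 in untreated cells. The untreated arrays lay above all 9 treated ones, and the 3 treated groups overlapped. Against untreated cells (2.12 ± 0.05) the gene fell by 0.81 ± 0.11 log2 units with 4OHT (0.569-fold; adjusted p = 0.00041), by 0.68 ± 0.11 with MG132 (0.623-fold; adjusted p = 0.00075) and by 0.78 ± 0.11 with both (0.583-fold; adjusted p = 0.00021). With both compounds it differed little from 4OHT alone (0.03, 95% interval -0.21 to 0.28) and from MG132 alone (-0.10, 95% interval -0.34 to 0.15). The 4OHT response was -0.10 with MG132 and -0.81 without, a difference of 0.72 ± 0.16 (adjusted p = 0.024). This last call was lost with slide as a block (0.55, adjusted p = 0.15) and on leaving out any one of the 3 untreated arrays, replicates 1 or 2 of MG132, or replicates 1 or 2 of MG132 with 4OHT (0.67 to 0.74, adjusted p of 0.051 to 0.069).

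Ccn1, another secreted matricellular YAP and SRF target, read 0.71, 0.70 and 1.47 with both compounds, 0.41, 0.70 and 0.97 with 4OHT, 0.06, 0.31 and 1.04 with MG132, and 0.05, -0.06 and 0.77 in untreated cells. In each group the third value, that of replicate 3, was the highest, and all groups overlapped. Over the 4 groups replicate 3 averaged 1.06, against 0.36 for replicates 1 and 2, a difference of 0.70 ± 0.09 (adjusted p = 0.0020). Ccn1 was the only one of the 9 genes called in that comparison (11.1%), in which 10.1% of all genes were called. No treatment comparison of Ccn1 passed the test in the fit by group alone, the largest estimate being 0.71 ± 0.32 for both compounds against untreated cells (adjusted p = 0.084). That one was called with array weights (0.75, adjusted p = 0.0039) and with normexp (0.62, adjusted p = 0.047), and its sign turned with slide as a block (-0.15, adjusted p = 0.87). Only MG132 spans the slides, and its second-slide array is a replicate 3, so that fit cannot tell slide from replicate 3. With replicate as a block, Ccn1 was called with both compounds (0.71, adjusted p = 0.0015) and 4OHT (0.44, adjusted p = 0.026) against untreated cells. It was also called with 4OHT added to MG132 (0.49, adjusted p = 0.019). With slide added to that block only 4OHT against untreated cells stayed called (0.44, adjusted p = 0.033). On the 8 arrays of replicates 1 and 2, Ccn1 was higher with both compounds than in untreated cells (0.71, adjusted p = 0.0078) and than with MG132 (0.52, adjusted p = 0.040), and higher with 4OHT than in untreated cells (0.56, adjusted p = 0.028). On the second slide alone, the arrays with both compounds averaged -0.08 relative to the single MG132 array, which is a replicate 3.

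**Figure D2:**
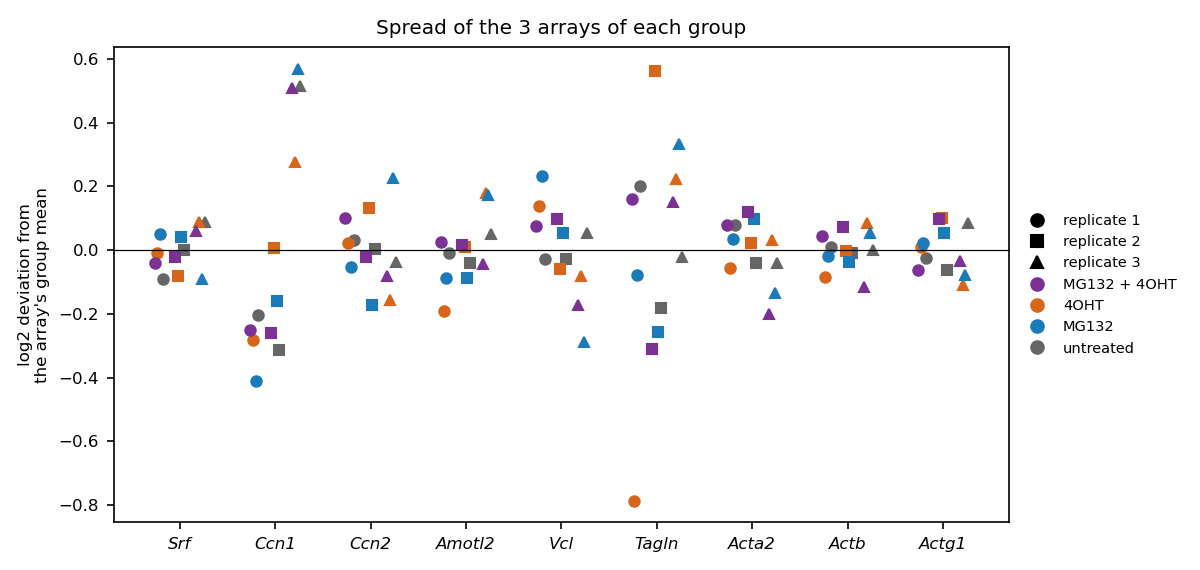
Deviation of each array from the mean of its group, in log2 units (vertical axis), for the 9 tested genes (horizontal axis); shape is the replicate number and colour the group. The 4 replicate 3 arrays are all above their group means for Ccn1, and replicate 1 of 4OHT is the lowest Tagln point.

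The gene whose pattern was most like that of Ccn1 over the 12 arrays was Eif2s3y, a Y-linked translation initiation factor gene, with a Pearson correlation of 0.949. Eif2s3y read 2.56, 2.53 and 2.95 with both compounds, 2.47, 2.57 and 2.88 with 4OHT, 2.26, 2.11 and 2.78 with MG132, and 2.02, 2.03 and 2.58 in untreated cells. Its replicate 3 array was likewise the highest of each group. For Ccn2 the most similar gene was Dynll1, a dynein light chain gene (0.975), for Srf it was Padi2, a peptidyl arginine deiminase gene (0.976), and for Amotl2 it was Sgk3, a kinase gene (0.982). These are descriptions over 12 arrays that share treatments and slides.

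Vcl encodes vinculin, which couples integrin and cadherin adhesions to actin, and its promoter stretch holds both a CArG box and the TEAD core. It read 3.41, 3.43 and 3.16 with both compounds, 2.91, 2.71 and 2.69 with 4OHT, 3.55, 3.37 and 3.03 with MG132, and 2.67, 2.67 and 2.75 in untreated cells. The 6 arrays with MG132 lay above the 6 without it. Vcl rose with MG132 against untreated cells by 0.62 ± 0.14 log2 units (3.32 ± 0.26 and 2.70 ± 0.05; 1.54-fold; adjusted p = 0.0046). It was higher with both compounds than with 4OHT alone by 0.56 ± 0.14 (3.33 ± 0.15 and 2.77 ± 0.12; 1.48-fold; adjusted p = 0.0066), and than in untreated cells by 0.64 ± 0.14 (1.55-fold; adjusted p = 0.0030). Adding 4OHT to MG132 gave an estimate of 0.02, with a 95% interval of -0.29 to 0.32. With slide as a block the 3 increases were 0.76 (adjusted p = 0.0012), 1.00 and 1.07, the last 2 through the single MG132 array of the second slide. With arrays centred on their median they were 0.28, 0.32 and 0.23 (adjusted p of 0.17, 0.12 and 0.25).

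Tagln, the smooth muscle actin-binding protein transgelin, read 0.44, -0.03 and 0.43 with both compounds, -1.15, 0.20 and -0.14 with 4OHT, 0.04, -0.14 and 0.45 with MG132, and 0.37, -0.01 and 0.15 in untreated cells. The groups overlapped in every comparison, and replicate 1 of 4OHT was the lowest array. No comparison passed the test, and the standard error of 0.31 on each pairwise log2 fold change was among the widest of the 9 genes. Without replicate 2 of 4OHT, Tagln was called higher with both compounds than with 4OHT alone (0.93, adjusted p = 0.031), against 0.64 ± 0.31 (adjusted p = 0.11) on all arrays. Leaving out any other single array gave no call, and without the low replicate 1 of 4OHT the estimate was 0.25.

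The cytoplasmic actins, Actb and Actg1, are SRF targets whose monomeric products in turn hold back MRTFs. Actg1, on its brightest probe, read 6.98, 7.14 and 7.01 with both compounds, 7.41, 7.50 and 7.29 with 4OHT, 6.87, 6.90 and 6.77 with MG132, and 7.19, 7.15 and 7.30 in untreated cells. It fell with MG132 against untreated cells by 0.37 ± 0.09 log2 units (6.85 ± 0.07 and 7.21 ± 0.08; 0.776-fold; adjusted p = 0.0086), with no overlap between the groups. It was also lower with both compounds than with 4OHT alone (log2 fold change -0.36 ± 0.09, adjusted p = 0.0085), a call lost with slide as a block (-0.24, adjusted p = 0.33). The fall with MG132 missed the threshold within the first slide (-0.33, adjusted p = 0.058) and on replicates 1 and 2 (-0.29, adjusted p = 0.051).

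Actb read 8.81, 8.84 and 8.65 with both compounds, 8.58, 8.66 and 8.75 with 4OHT, 8.50, 8.48 and 8.57 with MG132, and 8.49, 8.47 and 8.48 in untreated cells. Its groups lay within narrow ranges, and both compounds together were called above untreated cells by 0.29 ± 0.09 (8.77 ± 0.10 and 8.48 ± 0.01; 1.22-fold; adjusted p = 0.015). The direction of this change depends on the scaling: it was -0.12 with median centring and -0.06 with quantile normalization, neither of them called. The call was also lost without replicate 1 (0.27, adjusted p = 0.055) or replicate 2 (0.25, adjusted p = 0.063) of MG132 with 4OHT, and with slide as a block (0.20, adjusted p = 0.38).

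Acta2 encodes the smooth muscle alpha actin, and 2 of its 3 probes were kept. The brighter, A_51_P450957, read 4.59, 4.63 and 4.31 with both compounds, 4.70, 4.78 and 4.79 with 4OHT, 4.22, 4.28 and 4.05 with MG132, and 4.62, 4.50 and 4.50 in untreated cells. MG132 arrays were the lowest of all, and Acta2 on this probe fell by 0.35 ± 0.11 log2 units with MG132 against untreated cells (0.782-fold; adjusted p = 0.022). The dimmer probe, A_52_P420504, read -3.89, -4.27 and -3.99 with MG132, against -4.50, -4.84 and -5.28 in untreated cells. It was called the other way, at 0.82 ± 0.25 (adjusted p = 0.021), so no direction is given for the gene under MG132. The dimmer probe read only 11.8 to 31.4 intensity units, against 7140 to 12700 for the brighter one. That is near the lowest signal of any probe well above background on an array, 7.53 to 21.2 units. The call on the brighter probe was also lost without replicate 1 of untreated cells (-0.32, adjusted p = 0.078) or replicate 3 of MG132 (-0.29, adjusted p = 0.074). Slide as a block gives the same fit as the latter in this comparison and is no separate check. The higher level with both compounds than with MG132 alone (0.33 ± 0.11, adjusted p = 0.047) was lost under 19 of 28 other settings, slide as a block among them (0.46). On the mean of the probes its sign was turned (-0.09).

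**Figure D3:**
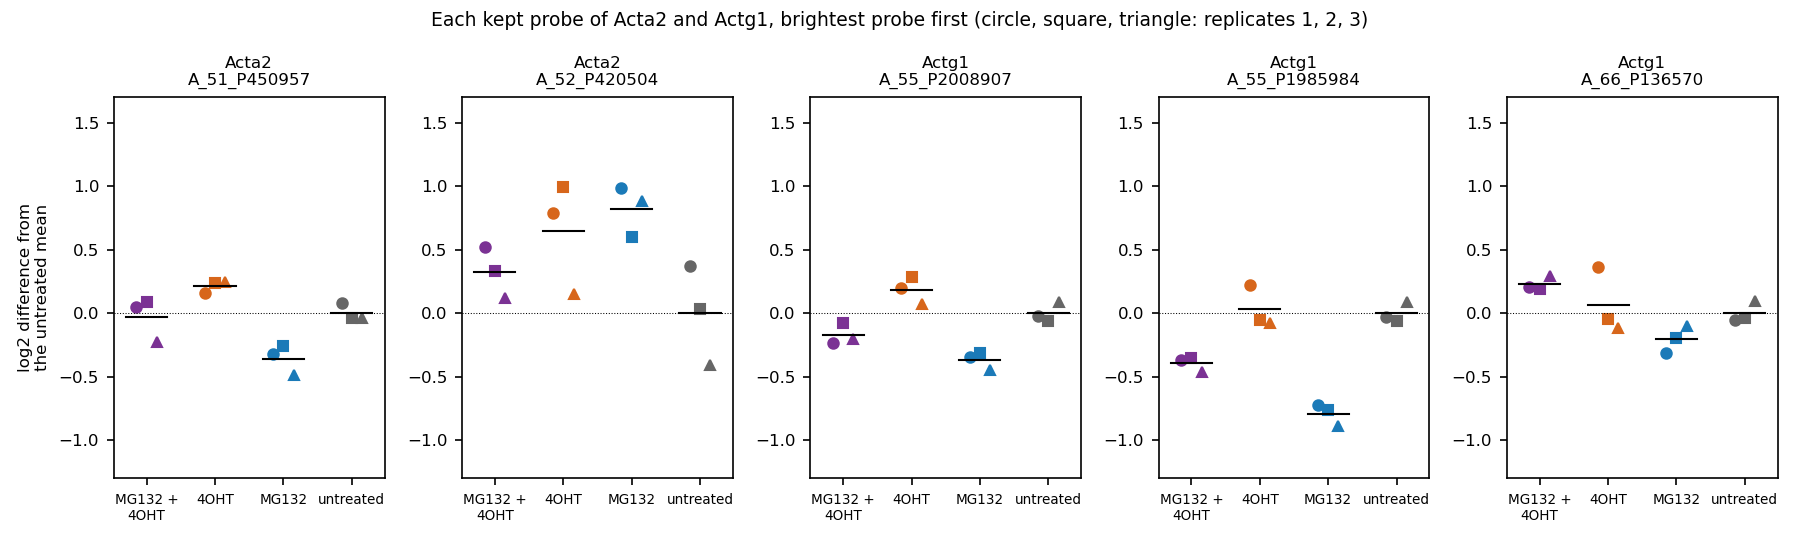
Each kept probe of Acta2 (2 panels on the left) and Actg1 (3 panels on the right), as the log2 difference from the untreated mean of that probe (vertical axis), by group (horizontal axis); points are arrays and bars group means. With MG132 the bright Acta2 probe is below the untreated mean on all 3 arrays and the dim one above it, and all 3 Actg1 probes are below it.

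The 3 probes of Actg1 differed in size rather than in sign with MG132 alone. Against untreated cells they gave -0.79 ± 0.10 (A_55_P1985984, adjusted p = 0.00019), -0.37 ± 0.09 (A_55_P2008907, adjusted p = 0.0088) and -0.20 ± 0.13 (A_66_P136570, adjusted p = 0.24). The last probe was not lower with both compounds than with 4OHT (0.17 ± 0.13, adjusted p = 0.31), where the first probe was (-0.42 ± 0.10, adjusted p = 0.0062). With 4OHT added to MG132 the first and last probes were called higher (0.39, adjusted p = 0.018, and 0.43, adjusted p = 0.032). The brightest probe, A_55_P2008907, was not (0.20, adjusted p = 0.14). Both compounds against untreated cells gave -0.40 (adjusted p = 0.0078), -0.17 and 0.23 on the probes in the same order, the last 2 not called. Actin genes are close copies of each other, and which of them each probe binds was not tested, since no probe sequences were used here. Over the 12 arrays Acta2 and Actg1 had the highest correlation of any pair among the 9 genes (Pearson r = 0.87), and Srf and Actb the lowest (-0.77).

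Set against all 26837 genes, the number of these genes that changed was mostly ordinary. With 4OHT against untreated cells 0 of 9 were called higher and 2 lower by limma (22.2%), and the same numbers had an unadjusted p under 0.05. Of all genes, 13.9% were higher and 14.7% lower in that comparison, 28.6% in all. With MG132 against untreated cells 2 were higher and 3 lower (55.6%), where 24.1% of all genes were higher and 19.0% lower (43.1%). With both compounds against untreated cells 3 were higher and 2 lower (55.6%), where the shares of all genes were 33.2% and 22.5% (55.6%). Adding 4OHT to MG132 gave 2 higher and 1 lower (33.3%), where 13.9% of all genes were higher and 12.6% lower (26.5%). Adding MG132 to 4OHT gave 2 higher and 1 lower (33.3%), where the shares of all genes were 29.4% and 20.9% (50.2%). The difference of the 4OHT responses was called for 2 of 9 (22.2%), both positive, where 2.94% of all genes were called positive and 3.61% negative (6.55%); the medians were 0.07 for the 9 genes and 0.05 for all. On replicates 1 and 2 alone the numbers called were 3, 5, 6, 5, 3 and 2, for 4OHT, MG132 and both compounds against untreated cells, for 4OHT added to MG132, for MG132 added to 4OHT and for the difference of responses, where 32.1%, 40.3%, 51.8%, 29.6%, 47.5% and 10.8% of all genes were called. The balance of directions depended on the scaling. With arrays centred on their median, 0 of the 9 were higher and 4 lower with MG132 against untreated cells by limma, also at an unadjusted p under 0.05, 1 was higher and 4 lower with both compounds against untreated cells, and 1 higher and 2 lower with MG132 added to 4OHT. The comparisons share their untreated, 4OHT and MG132 arrays, so they do not count as separate evidence.

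**Figure D4:**
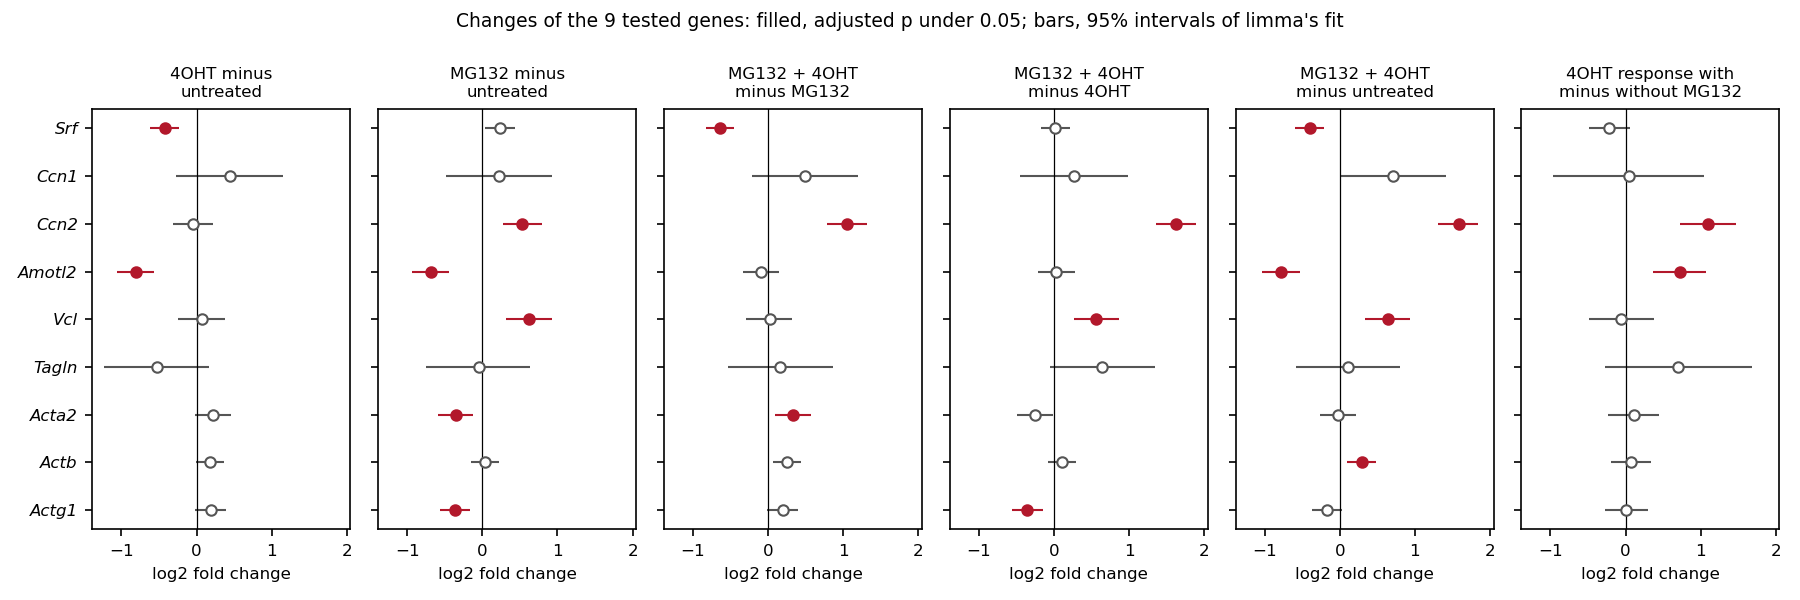
Log2 fold change of the 9 tested genes (rows) in the 6 comparisons (panels), with 95% intervals of the limma fit as bars; filled points have an adjusted p under 0.05. Ccn2 is the point farthest to the right in each of the 3 panels that set MG132 with 4OHT against another group, and Amotl2 and Srf are the only filled points left of 0 in the panel of 4OHT against untreated cells.

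Other targets of YAP and TEAD mostly rose with both compounds. Of 17 tested among 20 listed, 12 were higher and 1 lower with both compounds than in untreated cells, with a median log2 fold change of 1.18 against 0.19 for all genes, of which 33.2% were called higher and 22.5% lower. Tgfb2, a TGF-beta ligand (2.93), Gadd45a, a stress-response gene (2.10), and Ptpn14, a phosphatase that binds YAP (1.97), changed most. Adding MG132 to 4OHT gave 10 higher and 4 lower (median 0.76, all genes 0.13), with Ptpn14 (2.89), Tgfb2 (2.86) and Nuak2 (1.34) at the top, and adding 4OHT to MG132 gave 8 higher and 1 lower (median 0.20, all genes 0.07), led by Fjx1 (2.82), F3 (2.15) and Igfbp3 (1.64). With slide as a block, MG132 added to 4OHT gave 8 higher and 1 lower, and the call of Nuak2 was lost (0.94, adjusted p = 0.28). Against untreated cells, 4OHT gave 7 higher and 3 lower (median 0.23), with Fjx1 (3.14), Amotl1 (2.25) and Gadd45a (1.34) the largest changes, and MG132 gave 8 higher and 3 lower (median 0.43), with Ptpn14 (3.27), Tgfb2 (2.84) and Crim1 (1.05). With arrays centred on their median, the counts for MG132 were 4 higher and 4 lower. Amotl1, the nearest relative of Amotl2 on the list, thus rose with 4OHT where Amotl2 fell.

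Cytoskeletal targets of MRTF and SRF moved both ways. Against untreated cells, 13.9% of all genes were called higher and 14.7% lower with 4OHT, and 24.1% and 19.0% with MG132. The shares were 33.2% and 22.5% with both compounds, 13.9% and 12.6% for 4OHT added to MG132, and 29.4% and 20.9% for MG132 added to 4OHT. The counts of the YAP-TEAD list and of the lists below stand against the same shares. With 4OHT against untreated cells 3 of the 20 targets were higher and 6 lower (median -0.16, all genes 0.03). Fhl2, a LIM-domain cofactor, rose by 4.55 ± 0.24 log2 units (adjusted p = 1.3e-06), while Lima1, an actin cross-linker (-2.02), and Myl9, a myosin light chain (-1.84), fell. With MG132 against untreated cells 8 were higher and 7 lower (median -0.11), with Cald1 (1.71), Fhl2 (1.47) and Pdlim7 (1.34) changing most. With both compounds against untreated cells 7 were higher and 8 lower (median -0.03), with Fhl2 (3.22), Myl9 (-2.26) and Pdlim7 (2.24) at the extremes. Adding 4OHT to MG132 gave 3 higher and 6 lower, with Fhl2 (1.75), Myl9 (-1.58) and Lima1 (-1.36), and adding MG132 to 4OHT gave 6 higher and 7 lower, with Cald1 (1.86), Fhl2 (-1.33) and Cnn1 (1.05). With slide as a block, both compounds gave 4 higher and 2 lower against untreated cells (median 0.13), 4 higher and 1 lower against MG132, and 5 higher and 2 lower against 4OHT (median 0.19), and the calls of Myl9 (-1.21, adjusted p = 0.20 against untreated cells; -0.88, adjusted p = 0.32 against MG132) and of Cnn1 (1.00, adjusted p = 0.14) were lost. With median centring the counts were 5 higher and 10 lower with MG132 (median -0.44) and 4 higher and 10 lower with both compounds (median -0.43) against untreated cells, so the balance of directions depended on the scaling. Of the 3 other actin genes tested (Acta1, Actc1 and Actg2) 0 were called with either compound alone, and at an unadjusted p under 0.05 there was 1 with 4OHT and 0 with MG132. With both compounds 2 were called above untreated cells, Actc1 (0.61) and Actg2 (0.60), calls that were lost with slide as a block (0.07, adjusted p = 0.89, and 0.51, adjusted p = 0.13).

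Most of the immediate-early genes that SRF controls with ternary complex factors rose in the comparisons where Srf itself fell. With 4OHT against untreated cells 8 of 10 were higher and 1 lower (median 1.20, all genes 0.03), and adding 4OHT to MG132 gave 7 higher and 0 lower (median 2.58), also at an unadjusted p under 0.05. Of all genes, 13.9% were called higher and 14.7% lower in the first comparison, and 13.9% and 12.6% in the second. Egr1, a zinc finger transcription factor, rose by 3.09 ± 0.30 log2 units with 4OHT alone and by 8.35 with MG132 present. Egr3 was not well above background in untreated or MG132 cells, and 4OHT raised it at least 67.8-fold against untreated cells and, with MG132, at least 23.1-fold against MG132 alone. Fos rose by 2.02 and 3.45 in the same comparisons. With MG132 alone against untreated cells 0 of the 10 were called higher by limma, also at an unadjusted p under 0.05, and 3 lower, namely Egr1 (-2.96), Junb (-1.18) and Nr4a1 (-0.63). With both compounds against untreated cells 7 were higher and 1 lower, and against 4OHT alone 6 were higher and 4 lower. With slide as a block these counts were 6 and 0 against untreated cells and 5 and 2 against 4OHT alone.

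Of the SRF partners, 5 of 6 were tested, and with 4OHT alone limma called 0 of them, also at an unadjusted p under 0.05. Elk1 (0.56) and Elk4 (0.77), both ternary complex factors, were higher and Mrtfb (-0.50) lower with both compounds than in untreated cells, but with slide as a block these calls were lost, at 0.44 (adjusted p = 0.078), 0.57 (adjusted p = 0.14) and, with the sign turned, 0.08 (adjusted p = 0.88). Of 14 Hippo pathway and TEAD genes tested among 15 listed, 4OHT alone raised 3 and lowered 1, Tead4 (2.87) and Tead3 (2.17) changing most and Amot, the founding angiomotin, less (0.75). With MG132 alone 3 rose, Amot (0.93), Wwtr1, which encodes TAZ (0.71), and Stk4, a Hippo kinase (0.31), and 0 fell, also at an unadjusted p under 0.05. The call of Stk4 was lost with slide as a block (0.33, adjusted p = 0.062). With median centring it was lost with the sign turned (-0.03), that of Wwtr1 was lost (0.38, adjusted p = 0.097), and of the list 1 was higher and 3 lower (median -0.25). With both compounds 5 were higher and 3 lower than in untreated cells, with Tead4 (2.27), Amot (1.28) and Wwtr1 (0.87) ahead. Of all genes, 33.2% were called higher and 22.5% lower in that comparison. The counts of this list were 3 and 1 with slide as a block and 3 and 4 with median centring.

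**Figure D5:**
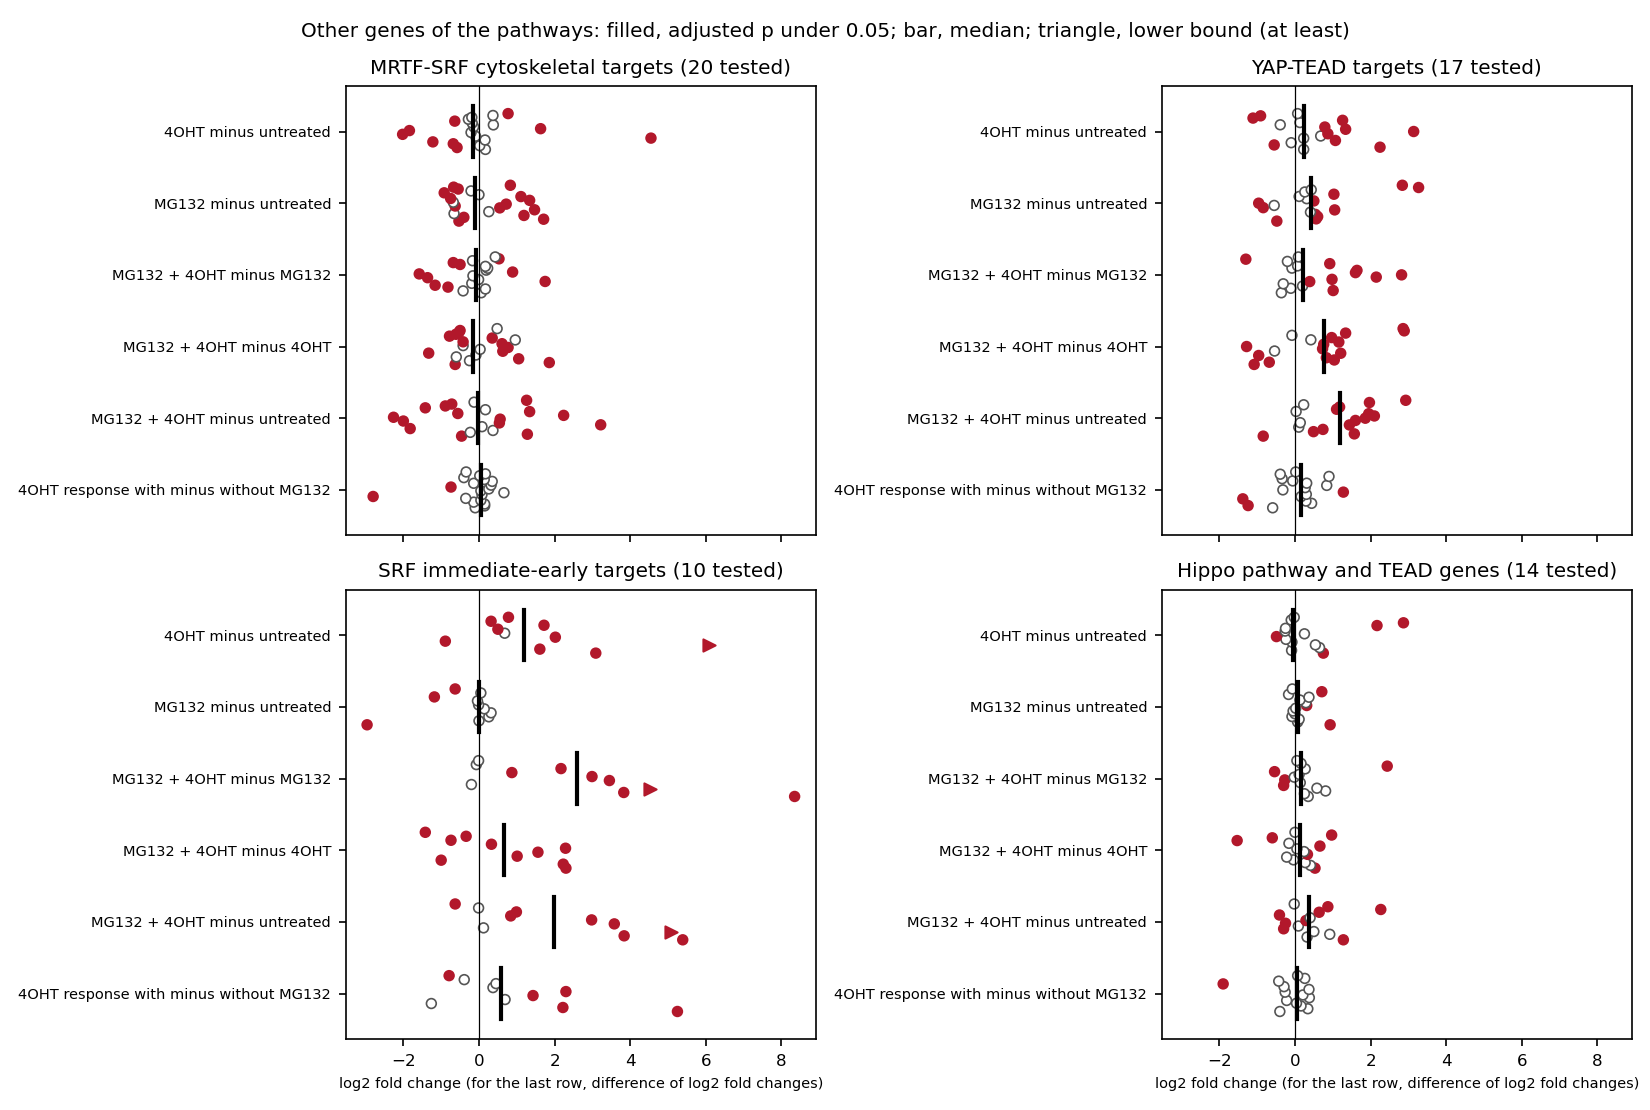
Log2 fold change of the other tested genes of 4 lists (panels) in the 6 comparisons (rows); the last row is the difference of the 4OHT responses. Filled points have an adjusted p under 0.05, vertical bars are list medians, and triangles are lower bounds for Egr3. The YAP-TEAD medians are right of 0 in every row, at most 1.18, and the MRTF-SRF medians lie between -0.17 and 0.05.

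Because fibroblasts and smooth muscle cells express Tagln, Acta2, Ccn1 and Ccn2 strongly, markers of those cells are given beside these results. The summed linear level of the 9 fibroblast markers tested, in units of the array's 75th percentile, lay between 34.5 and 51.7 with both compounds, between 77.5 and 101 with 4OHT, between 15.3 and 20.1 with MG132 and between 26.6 and 44.6 in untreated cells. That of the 4 smooth muscle markers tested was 6.67 to 9.42, 10.1 to 19.4, 0.765 to 3.05 and 2.81 to 3.04 in the same order of groups. A sum of this kind follows its brightest genes, Vim among the fibroblast markers and Smtn among those of smooth muscle, and single markers did not all move with it. Of the 9 fibroblast markers 4 were higher and 1 lower with both compounds than in untreated cells, 4 higher and 1 lower with 4OHT, and 2 higher and 1 lower with MG132, with medians of 0.40, 0.66 and 0.39. Of the 4 smooth muscle markers 1 was higher and 0 lower with both compounds, 1 higher and 1 lower with 4OHT, and 2 higher and 0 lower with MG132, with medians of 0.66, 0.48 and 0.68. In the comparison of both compounds with 4OHT alone, 2 fibroblast markers were higher and 4 lower (median -0.30), and 1 smooth muscle marker was higher and 0 lower (median 0.18). The counts of 0 here were also 0 at an unadjusted p under 0.05 by limma. Against untreated cells, 33.2% of all genes were called higher and 22.5% lower with both compounds, and 13.9% and 14.7% with 4OHT. With MG132 these shares were 24.1% and 19.0%, and with both compounds against 4OHT alone they were 29.4% and 20.9%. The 9 stem cell markers summed to between 498 and 574 with both compounds, between 865 and 900 with 4OHT, between 519 and 532 with MG132 and between 876 and 921 in untreated cells, so they were lower in the groups with MG132, where Vcl was higher. Fewer cells of a type and less RNA per cell cannot be told apart in these bulk samples, and the part of such shifts in the results on Vcl, Acta2 and the other members was not tested.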

How the data were processed

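Total RNA from mouse embryonic stem cells was labelled with Cy3 (100 ng per sample) and hybridised to 1-colour Agilent arrays, per the labels' protocols. Per the file headers, the scans were read with Feature Extraction 11.0.1.1, and the authors deposited its intensity output array by array, with the background subtracted within an array and no scaling between arrays; a series-wide table the authors deposited held the same intensity values. Each array held 62976 spots, 3671 of them controls, which were left out. No spot was saturated. The file headers name build mm9, and no coordinates of that build are used.

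Accessions were matched to RefSeq gene names of GRCm38.p6 (58.3% of probes). Spots of one probe were averaged, log2 intensity was centred on each array's 75th percentile, dim probes were left out as stated in the report, and a gene took the value of the brightest of its probes among the 34328 that remained. limma 3.58.1 (R 4.3.3) was fitted over all 12 arrays with 1 coefficient per group (8 residual degrees of freedom), with Benjamini-Hochberg adjustment over 26837 genes; called means an adjusted p under 0.05. The series' design text calls the replicates biological, and the p-values measure the spread between these arrays. The smallest p of an exact test with 3 arrays in either group is 0.1, and no such test was run. A group with no array well above background has only a bound, set per array at the probe's own signal or, where that is lower, at the lowest signal of any probe well above background. The number of arrays limits the precision. The limma step was tested on simulated data. Plots were drawn with Python 3.11.15 and matplotlib 3.10.9.

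The members, the gene lists and the alternatives were chosen with earlier results of these data known. All 10 members are named; of each list, up to 3 called genes with the largest change per comparison are named, and Actc1, Actg2, Fos, Nr4a1 in the difference of responses and the named cell markers were added as examples after their values were seen. Alternatives were normexp (on median signals, since mean signals were not among the columns used), median centring, quantile normalization, no filter, a filter that asks for signal on all 12 arrays, probes averaged within a gene, an intensity trend, array weights, fewer arrays, slide and replicate blocks, a 2-fold minimum and, added after seeing the data, replicates 1 and 2 alone.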

Additional observations from a re-analysis of the deposited data

Results flagged for a closer look

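The 4OHT response differed between cells with and without MG132, by the test of the difference itself, in Ccn2 (1.09) and Amotl2 (0.72), as described above. It also differed in 11 genes of the pathway lists, where 6.55% of all genes were called. The genes tested were 20 MRTF-SRF targets, 17 YAP-TEAD targets, 10 immediate-early genes, 14 Hippo pathway and TEAD genes, 5 SRF partners and 3 other actin genes. Among immediate-early genes the response was larger with MG132 for 4 genes and smaller for 1: for Egr1 it was 8.35 with MG132 and 3.09 without, a difference of 5.25 ± 0.30 log2 units (SE, n = 3 arrays a group, limma adjusted p = 3.8e-05), the differences were 2.30 for Fosb, 2.22 for Egr2 and 1.43 for Fos, and that for Nr4a1 was -0.79. Among YAP-TEAD targets F3 responded more with MG132 (difference 1.28), whereas Axl (-1.38) and Amotl1 (-1.24) responded less. Fhl2 (-2.80) and Pdlim7 (-0.74) of the MRTF-SRF list and Tead3 (-1.90) also responded less, Fhl2 with a response of 1.75 with MG132 and 4.55 without. With slide as a block the differences of F3 (0.96, adjusted p = 0.17), Pdlim7 (-0.61, adjusted p = 0.12), Tead3 (-1.76, adjusted p = 0.058), Fosb (2.21, adjusted p = 0.052), Fos (1.43, adjusted p = 0.075) and Nr4a1 (-0.58, adjusted p = 0.18) were no longer called.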

How the results depend on the processing

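Of value and setting pairs (9 genes), 395 kept direction and side of the threshold. The call was lost in 31, gained in 19, and 18 turned in sign. The 395 include the series-wide table, which cannot differ. Leaving out single arrays gave 328, 21, 6 and 5. The increases of Ccn2 with both compounds against each other group, its difference of responses, the fall of Srf with 4OHT against untreated cells and the falls of Amotl2 against untreated cells kept their calls under all alternatives run on single genes. With slide as a block, the calls that involve both compounds rest on the single MG132 array of the second slide. The 2-fold minimum was applied only to the counts of all genes, and these falls of Srf and Amotl2 were smaller than 2-fold. Unless stated, the cause of a change was not tested. Ankrd1 gave no value under the main filter because its signal did not exceed background.

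Scaling moved all genes together. With median centring the median log2 fold change of all genes was -0.27 for MG132, -0.13 for 4OHT and -0.21 for both compounds against untreated cells, and -0.11 for MG132 added to 4OHT, against 0.07, 0.03, 0.19 and 0.13 in the main analysis. The share of higher genes among those called was then 27.6%, 30.9%, 30.8% and 38.7% in the same order, 42.0% for 4OHT added to MG132 and 58.7% for the difference of responses, against 56.0%, 48.7%, 59.6%, 58.4%, 52.4% and 44.9%. For 4OHT it was 68.4% with normexp and 38.0% with quantile normalization, and for both compounds against untreated cells 48.4% with quantile normalization. Signs turned for Srf (-0.10) and Stk4 (-0.03) with MG132, for Amotl2 with both compounds against 4OHT (-0.21, and -0.06 to 0.12 on leaving out single arrays) and for Actb against untreated cells (-0.12; -0.06 with quantile normalization). Vcl with both compounds against MG132, at 0.02, was -0.05 with median centring, -0.04 with normexp, -0.07 with quantile normalization and -0.13 to 0.13 on leaving out single arrays.

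The numbers of genes called were 7666 for 4OHT, 11564 for MG132 and 14933 for both compounds against untreated cells, 7108 for 4OHT added to MG132, 13479 for MG132 added to 4OHT and 1759 for the difference of responses. A 2-fold minimum left 2979, 4282, 6319, 1944, 5402 and 1041. For 4OHT against untreated cells no filter gave 14466 and the 6 arrays alone 5072. With array weights 4OHT added to MG132 gave 14948 genes and 5 of the 9, the difference 6047 genes, and Ccn2 with 4OHT 0.02. Leaving out single arrays gave 4620 to 8826 genes and 2 to 4 of the 9 for 4OHT added to MG132, 1037 to 2529 genes and 1 to 2 of the 9 for the difference, and Ccn2 with 4OHT from -0.11 to 0.03. The count for 4OHT added to MG132 was 4722 without MG132 replicate 2, and 4676 and 4620 without replicates 1 and 2 of MG132 with 4OHT. That for the difference was 1108 and 1066 without replicates 1 and 2 of untreated cells, 1127 and 1090 without those of MG132, and 1087 and 1037 without those of MG132 with 4OHT. Averaging probes turned Acta2 with MG132 (0.23), Acta2 with 4OHT added to MG132 (-0.09) and Mrtfb with both compounds (0.18).

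With slide as a fixed block the counts were 2986 for 4OHT added to MG132, 5334 for MG132 added to 4OHT, 7022 with 3 of the 9 for both compounds against untreated cells, and 802 with 1 of the 9 for the difference. Signs then turned for Ccn1 with both compounds against MG132 (-0.08) and untreated cells (-0.15), Amotl2 against 4OHT (-0.22) and Mrtfb (0.08). Within 1 slide, 3 of the 9 were called with MG132 against untreated cells, and 4OHT added to MG132 called 2090 genes and 1 of the 9, with Ccn1 at -0.08; these fits have fewer arrays. On replicates 1 and 2 alone, chosen after seeing the data, 4OHT added to MG132 called 5 of the 9 with Amotl2 at 0.01 and Vcl at -0.04, the difference called 2910 genes, and Ccn2 with 4OHT was 0.01.

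By the correlation of deviations, 18 same-numbered pairs gave -0.06 to 0.41, with 11 over 0.1, and 36 pairs of unlike number gave -0.29 to 0.19, with 8 over 0.1. The pairs of replicate 3 gave 0.12 to 0.41, those of replicate 1 -0.06 to 0.16 and those of replicate 2 0.07 to 0.15. Arrays of the same number thus shared some deviation, mostly in replicate 3, and the main fit has no replicate term. With the replicate block the numbers of genes called were 8829, 12665, 15776, 8635, 14485 and 2565 for the 6 comparisons in the order above, Srf with MG132 against untreated cells crossed the threshold (0.24), and Ccn1 was called with 4OHT (0.44, adjusted p = 0.026) and both compounds (0.71, adjusted p = 0.0015) against untreated cells and with 4OHT added to MG132 (0.49, adjusted p = 0.019). The replicate block together with slide gave 2312 genes for 4OHT added to MG132, 4833 for MG132 added to 4OHT with Amotl2 at -0.13, 6055 with 3 of the 9 for both compounds against untreated cells, and 804 with 1 of the 9 for the difference.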
